A study of Homo sapiens with 6 samples.

Results

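Secreted antagonists of bone morphogenetic proteins (BMPs) and activins were followed in LX-2 cells, a human hepatic stellate line, with and without recombinant human BMP9. The members were 10 genes (GREM1, NOG, CHRD, CHRDL1, FST, FSTL1, FSTL3, BMPER, TWSG1 and SOSTDC1), and every probe set that the array's annotation assigned to exactly 1 of them was taken, which gave 27 probe sets among 49395 on the array. In the control group LX-2 cells were starved of serum for 12 h and cultured with 0 ng/ml BMP9 for 24 h, and the BMP9 group differed only in receiving 50 ng/ml, with 3 arrays per group, all from 1 cell line. The labels call the 3 samples of a group biological replicates without naming separate cultures, so the p-values describe the spread between these samples. The values given are log2 levels of single probe sets, and differences are BMP9 minus control on that scale.

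BMPs and activins are secreted dimers of the TGF-beta family that bind type I and type II receptors and act through SMAD1/5/9 or SMAD2/3. The antagonists are secreted proteins that bind these ligands outside the cell and keep them from their receptors. GREM1, NOG and SOSTDC1 are cystine-knot proteins that block mainly BMPs, CHRD, CHRDL1 and BMPER carry cysteine-rich chordin-type repeats, TWSG1 is a cofactor of chordin, and FST and FSTL3 bind activins. BMP9, the product of GDF2, circulates from the liver and is known for its low sensitivity to noggin.

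GREM1, which encodes gremlin-1, was the antagonist that rose with BMP9, in 1 of its 4 probe sets, and 0 of the 27 probe sets fell. At a limma adjusted p under 0.05 over all probe sets, 0.134% of the 49293 probe sets tested were called higher and 0.276% lower, 0.41% in all. At an unadjusted p under 0.05 stood 4 member probe sets, 3 of them higher and 1 lower, against 11.4% of all probe sets. With each gene represented by its brightest probe set, 1 of the 10 genes rose and 0 fell (2 had an unadjusted p under 0.05, GREM1 and TWSG1, against 12.9% of all genes), where 0.232% of 18132 genes were called higher and 0.452% lower (0.684% in all). The groups did not overlap in 5 of the 27 probe sets (3 higher and 2 lower with BMP9), against 17.3% of all probe sets (9.09% higher and 8.17% lower). The median difference was -0.020 over the 27 probe sets and 0.0078 over all probe sets.

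These differences are on the deposited scale, which RMA's quantile step fixes. The array's own added control RNAs were lower on the BMP9 arrays: the hybridisation controls averaged 10.1 to 10.2 on the control arrays and 9.87 to 10.0 on the BMP9 arrays, and the poly-A controls 6.09 to 6.22 and 5.39 to 5.83. Scaling the arrays to the hybridisation controls moved the median difference of all probe sets to 0.22, with 10445 probe sets called higher and 143 lower in place of 66 and 136. Scaling to the poly-A controls moved it to 0.54, with 45775 higher and 30 lower. Under these scalings 4 and 26 of the 27 member probe sets were called higher and 0 lower, so every negative difference below is relative to those shifts; 15 of the 16 negative ones turned positive under hybridisation scaling and all 16 under poly-A scaling.

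**Figure D1:**
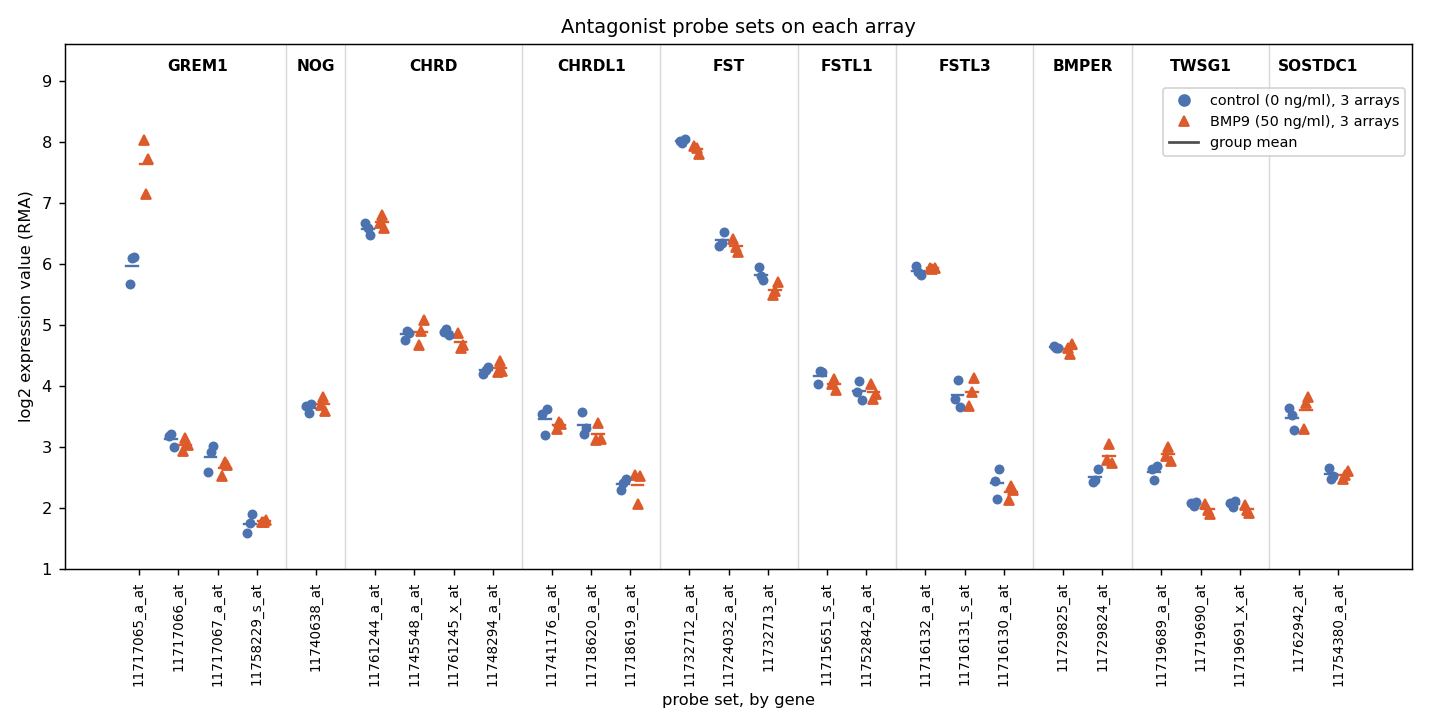
Log2 expression value (y axis) of each of the 27 antagonist probe sets (x axis, grouped by gene) on the 3 control arrays (circles) and the 3 BMP9 arrays (triangles), with bars at the group means. The BMP9 arrays lie clearly above the control arrays in 1 GREM1 probe set, 11717065_a_at, and the other 26 probe sets show group means within 0.35 of each other.

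In the GREM1 probe set 11717065_a_at the control arrays read 5.68, 6.10 and 6.11 and the BMP9 arrays 8.03, 7.14 and 7.72. All 3 BMP9 arrays lay above all 3 control arrays, with 1.03 between the lowest of the former and the highest of the latter. The group means were 5.96 ± 0.25 and 7.63 ± 0.45 (SD, n = 3), a rise of 1.67 (SE 0.20, 95% interval 1.24 to 2.10), or 3.18-fold, with a limma adjusted p of 0.00406 over all probe sets. Relative to the control mean, the single BMP9 arrays stood at 4.20-fold, 2.26-fold and 3.38-fold, so the size of the rise varied among them: its SE was above that of 99.9% of all probe sets. Among the 18132 genes, GREM1 had rank 2 by size of rise and rank 33 by p. The call held whichever single array was left out (difference 1.47 to 1.91, limma adjusted p 0.000767 to 0.0294), and under the hybridisation and poly-A scalings the rise was 1.88 and 2.20.

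The other 3 GREM1 probe sets were dim, with means over the 6 arrays of 3.09, 2.75 and 1.77. Of the 23 background classes described further on, 10, 11 and 16 had a higher mean, so these probe sets are not known to lie above background, and their values do not show that GREM1 transcripts they match did not rise. Probe set 11717066_at read 3.18, 3.22 and 3.0 in control and 2.94, 3.14 and 3.03 with BMP9, a difference of -0.098 (95% interval -0.30 to 0.10). Values of 2.60, 2.91 and 3.02 in control and 2.53, 2.76 and 2.70 with BMP9 were found for 11717067_a_at, a difference of -0.18 (95% interval -0.44 to 0.068). The third, 11758229_s_at, whose suffix marks probes shared with other transcripts, read 1.59, 1.75 and 1.90 in control and 1.78, 1.77 and 1.81 with BMP9, a difference of 0.038. In all 3 the groups overlapped, and the first 2 differences turned positive under either scaling to control RNAs.

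The probe sets of a gene were set against each other with limma's diffSplice. For the rising GREM1 probe set the contrast with the other 3 was 1.75 (diffSplice adjusted p = 7.24e-07 over 38590 probe sets), where 0.632% of all probe sets passed. Since those 3 are not known to lie above background, this describes signals of the array and does not show that GREM1 transcripts responded unequally, and at a minimum mean log2 value of 5 GREM1 had no pair to compare. On simulated data diffSplice, which pools the variance over a gene's probe sets, called 221 genes of which 35 had been left unchanged. With each contrast's own variance, an alternative added for that reason, the GREM1 contrast was 1.75 (SE 0.21) with a limma adjusted p of 0.0124. Averaging all 4 GREM1 probe sets gave 0.36 and ended the call of the gene (limma adjusted p = 0.113). In the other antagonists 0 probe sets passed in diffSplice, with the smallest adjusted p at 0.109 for 11719689_a_at of TWSG1 (contrast 0.38) and 0.303 for the BMPER pair (contrast 0.37), which are dim as well.

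The window before the annotated GREM1 start is shown beside those of FSTL3 and FST, which were measured but did not pass, because BMP-activated SMAD1/5 is known to bind the GC-rich motif GGCGCC. Each is the 250 bases upstream of a transcription start, 5′ to 3′ on the plus strand, from RefSeq on GRCh38.p14, with GGCGCC in capitals: GREM1 at chr15:32717754-32718003, FSTL3 at chr19:676142-676391 and FST at chr5:53480379-53480628.
GREM1: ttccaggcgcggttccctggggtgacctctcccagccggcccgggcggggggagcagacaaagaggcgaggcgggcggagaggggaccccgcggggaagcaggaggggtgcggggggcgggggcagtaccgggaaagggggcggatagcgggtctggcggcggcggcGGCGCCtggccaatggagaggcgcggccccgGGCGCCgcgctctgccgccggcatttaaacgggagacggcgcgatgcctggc
FSTL3: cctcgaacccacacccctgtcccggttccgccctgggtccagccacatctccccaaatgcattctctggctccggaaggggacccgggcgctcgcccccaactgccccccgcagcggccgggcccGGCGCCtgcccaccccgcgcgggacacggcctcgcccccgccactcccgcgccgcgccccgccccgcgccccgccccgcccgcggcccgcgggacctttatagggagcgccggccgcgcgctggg
FST: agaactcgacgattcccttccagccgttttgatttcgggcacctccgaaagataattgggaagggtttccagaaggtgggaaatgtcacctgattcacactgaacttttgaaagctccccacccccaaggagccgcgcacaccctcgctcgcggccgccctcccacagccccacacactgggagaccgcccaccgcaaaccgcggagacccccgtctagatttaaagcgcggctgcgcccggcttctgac

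GGCGCC reads the same on both strands and was found 2 times before the GREM1 start, beginning 83 and 52 bases upstream. In the table's windows, which run from 250 bases before to 50 after a start, it was present in 19.2% of all 35116. Of the 10 windows of the antagonists (8 genes, with 2 starts each for GREM1 and BMPER), 6 held it: GREM1 at the start shown and not at the other, CHRD, FSTL1, FSTL3 and BMPER at both starts. It was not found in those of FST, CHRDL1 and TWSG1, and NOG and SOSTDC1 had no entry. The antagonist windows had a GC content of 63.7% to 81.3%, against a median of 58.7% over all windows, and a motif made of G and C is met more often in such sequence. The TATAAA motif, searched on both strands, was found in FSTL3, as TTTATA on the strand shown (11.5% of all windows held it). GGAGCC, also searched on both strands, was found in neither GREM1 window and in every other antagonist window (36% of all windows held it). After the matches were seen, this motif was picked from the 8 searched. No conclusion is drawn from its absence in the GREM1 windows. A match describes the letters of a window and shows neither binding nor a response. CHRD, FSTL1, FSTL3 and BMPER had GGCGCC and were not called. Over the windows searched, FSTL1, FSTL3 and a BMPER start held it 2 times, as did the GREM1 start shown.

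**Figure D2:**
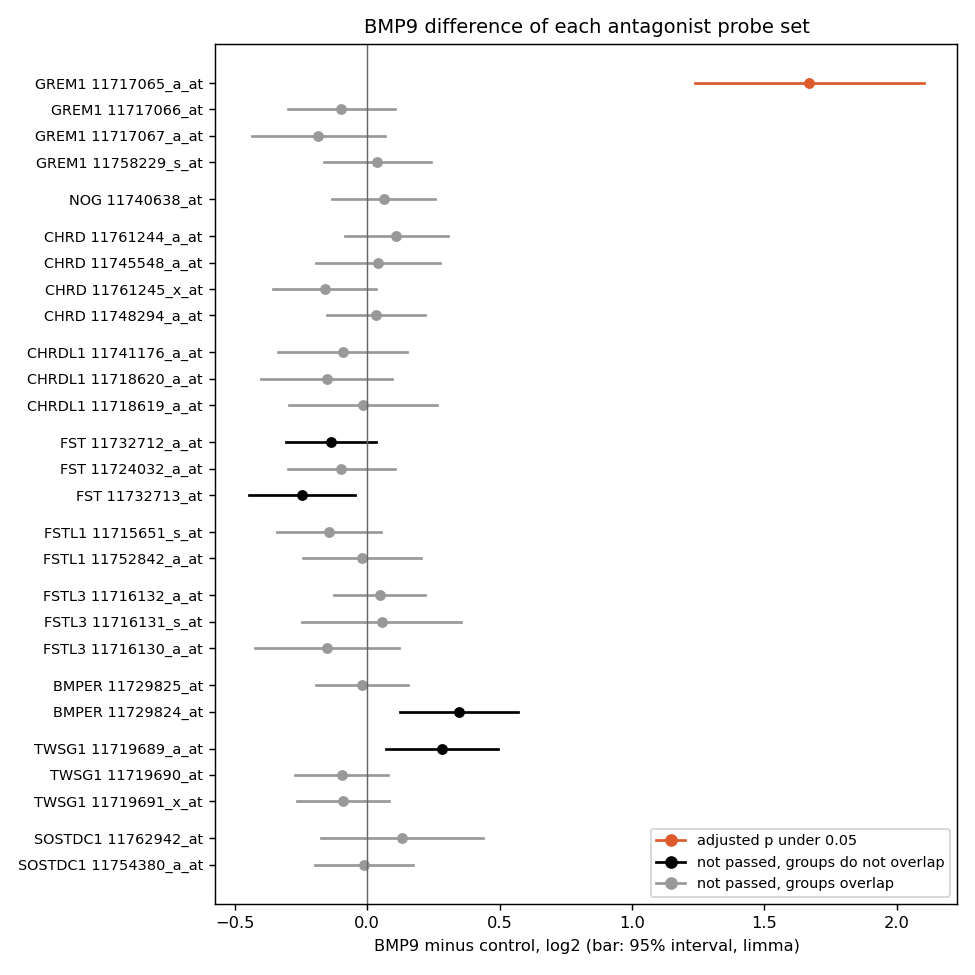
BMP9 minus control difference in log2 (x axis) of each antagonist probe set (rows), as points with 95% intervals from limma. GREM1 11717065_a_at, at 1.67, is the probe set past an adjusted p of 0.05 (orange); black marks the 4 others whose groups did not overlap, and the remaining 22 are grey.

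The other cystine-knot antagonists, NOG and SOSTDC1, gave no call. NOG, which encodes noggin, had 1 probe set, at 3.67, 3.55 and 3.70 in control and 3.69, 3.83 and 3.59 with BMP9. Its groups overlapped, with a difference of 0.062 (95% interval -0.13 to 0.26, limma adjusted p = 0.834). SOSTDC1, whose product is also a Wnt inhibitor, read 3.63, 3.53 and 3.28 in control and 3.29, 3.72 and 3.83 with BMP9 in 11762942_at, a difference of 0.13 with an interval of -0.18 to 0.44. Its other probe set, 11754380_a_at, differed by -0.013 on a control mean of 2.55 ± 0.096 (SD, n = 3).

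Among the chordin family, CHRD, which encodes chordin, had 4 probe sets with differences of -0.16 to 0.11 and overlapping groups in all of them. The brightest, 11761244_a_at, read 6.67, 6.59 and 6.48 in control and 6.68, 6.80 and 6.59 with BMP9 (difference 0.11, 95% interval -0.085 to 0.30, limma adjusted p = 0.683). With hybridisation scaling it was called higher, just under the threshold (difference 0.32, limma adjusted p = 0.04995), where 21.2% of all probe sets were. The CHRD probe set 11761245_x_at, annotated to the same transcript, had a control mean of 4.88 ± 0.049 and a BMP9 mean of 4.72 ± 0.13 (SD, n = 3), and its difference of -0.16 was positive under both control scalings. CHRDL1, a chordin-like BMP antagonist, had 3 probe sets, all with negative differences (-0.093, -0.15 and -0.016, positive under both control scalings) and overlapping groups. Its brightest, 11741176_a_at, read 3.54, 3.19 and 3.63 in control and 3.30, 3.40 and 3.38 with BMP9.

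BMPER and TWSG1 each had 1 probe set whose groups did not overlap and others that did. BMPER encodes a chordin-type protein that can hinder or help BMP signalling. Its probe set 11729824_at read 2.43, 2.47 and 2.64 in control and 2.79, 3.05 and 2.74 with BMP9. All BMP9 arrays were above all control arrays, with a difference of 0.35 (SE 0.10, 95% interval 0.12 to 0.57) that did not pass (limma adjusted p = 0.230, the smallest among the 26 probe sets without a call). The brighter BMPER probe set, 11729825_at, read 4.66, 4.62 and 4.62 in control and 4.62, 4.53 and 4.69 with BMP9, a difference of -0.020 (95% interval -0.19 to 0.15) that was positive under both control scalings.

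TWSG1, the twisted gastrulation gene, read 2.64, 2.45 and 2.69 in control and 2.86, 3.01 and 2.77 with BMP9 in 11719689_a_at. The groups were again apart, and the difference of 0.28 (95% interval 0.071 to 0.49) did not pass (limma adjusted p = 0.298). The other pair of TWSG1 probe sets, 11719690_at and 11719691_x_at, read within 0.029 of each other on every array, are annotated to the same transcript and are not independent measurements. Their differences were -0.097 and -0.091, positive under both control scalings. With hybridisation scaling BMPER 11729824_at and TWSG1 11719689_a_at were called higher (0.56 and 0.49, limma adjusted p 0.0135 and 0.0165), where 21.2% of all probe sets were.

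The follistatin group holds FST, which encodes follistatin, a high-affinity binder of activins, FSTL3, a related activin binder, and FSTL1, which shares a follistatin-type domain. FST had 3 probe sets and all 3 had negative differences. The brightest, 11732712_a_at, read 8.01, 7.99 and 8.04 in control and 7.92, 7.90 and 7.81 with BMP9, so that all BMP9 arrays lay below all control arrays. The means were 8.01 ± 0.027 and 7.88 ± 0.062 (SD, n = 3), a difference of -0.14 (95% interval -0.31 to 0.032, limma adjusted p = 0.539). In 11732713_at the values were 5.94, 5.80 and 5.73 in control and 5.49, 5.55 and 5.70 with BMP9, again without overlap, a difference of -0.25 (95% interval -0.45 to -0.046, limma adjusted p = 0.344). For 11724032_a_at, annotated to another FST transcript, the values were 6.29, 6.35 and 6.52 in control and 6.40, 6.27 and 6.19 with BMP9, with overlap and a difference of -0.098. None of these passed, and with hybridisation scaling 2 of the 3, and with poly-A scaling all 3, turned positive.

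FSTL3 read 5.96, 5.86 and 5.82 in control and 5.93, 5.91 and 5.93 with BMP9 in its brightest probe set, 11716132_a_at. Those groups overlapped, with a difference of 0.047 (95% interval -0.12 to 0.22), and the other FSTL3 probe sets differed by 0.054 and -0.15, the latter positive under both control scalings. FSTL1 read 4.03, 4.24 and 4.23 in control and 4.03, 4.11 and 3.94 with BMP9 in 11715651_s_at, with overlap and a difference of -0.14 (95% interval -0.34 to 0.054). Its other probe set, 11752842_a_at, differed by -0.020. Both FSTL1 differences were positive under both control scalings.

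Over the 26 probe sets without a call the differences ran from -0.25 to 0.35, and their 95% intervals from -0.45 to 0.57 at the widest. The intervals of 25 of them stayed within 0.5 on the log2 scale in either direction, and BMPER 11729824_at was the exception. A missing call does not show that these genes did not change. The deposited table holds no detection calls. Of the 27 probe sets, 21 had a mean log2 value under 5, among them all those of NOG, CHRDL1, FSTL1, BMPER, TWSG1 and SOSTDC1. A mean of at least 5 was reached by 6 of the 27 and by 11438 of the 49293 probe sets tested. The array carries 23 background probe sets that match no human transcript, grouped by the number of G and C bases in their probes, and their means ran from 1.67 at 3 such bases over 2.39 at 14 to 10.0 at 25. Of the 27 probe sets 0 had a mean above the highest background class, against 0.363% of all probe sets. Of the background classes, 5 lay above the control mean of GREM1 11717065_a_at and 2 above the mean of the brightest FST probe set. Since the composition of the members' probes was not used here, none of the 27 is known to lie above background, and a fold taken on values that hold background, the 3.18-fold of GREM1 included, can understate a change. The differences of the background probe sets were -0.032 to 0.061 but for the last class, at 0.21.

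The antagonists were set beside 5 lists of other genes of the pathway, 61 measured genes in all, each by its brightest probe set. Among 18 other extracellular modulators of BMP and activin signalling 0 passed in limma (2 had an unadjusted p under 0.05, as had 12.9% of all genes), with a median difference of 0.026 against 0.014 over all genes. The smallest p in that list were those of BAMBI, a pseudoreceptor (0.24, limma adjusted p = 0.334), and DAND5, a relative of gremlin (0.18, limma adjusted p = 0.365). Of the 4 genes of chordin-cleaving proteases and their enhancer 0 passed in limma (0 at an unadjusted p under 0.05), and BMP1, which encodes a protease that cuts chordin, differed by -0.26 (limma adjusted p = 0.404), positive under poly-A scaling.

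Of 13 ligand genes INHBB, an activin subunit and so a possible target of FST and FSTL3, went from 6.15 ± 0.069 to 5.24 ± 0.29 (SD, n = 3) and so fell, with a difference of -0.91 (SE 0.13, limma adjusted p = 0.0103), and 0 rose. Its difference was -0.70 with hybridisation scaling and -0.38 with poly-A scaling, called in both. Of 14 receptors and signalling SMADs the activin and BMP receptor gene ACVR2A fell, by 0.66 (SE 0.091, limma adjusted p = 0.00945), and 0 rose. Their median differences were -0.042 and 0.023. Of 12 feedback genes and targets of BMP-SMAD signalling 4 rose and 0 fell, with a median of 0.21: SMAD6 (3.01), ID3 (1.63), ID2 (1.21) and ID4 (0.99). Among all 18132 genes 0.232% were called higher and 0.452% lower. An unadjusted limma p under 0.05 was found for 2 ligand genes, 5 receptor and SMAD genes and 5 feedback genes and targets. Of all genes, 12.9% had one. Averaging a gene's probe sets gave 1.99 for SMAD6 and 1.06 for ID3, called in both. The INHBB call ended without control replicate 1, control replicate 3 or BMP9 replicate 2 (limma adjusted p 0.0548 to 0.0679). The ACVR2A call ended without control replicate 1, control replicate 3, BMP9 replicate 2 or BMP9 replicate 3 (limma adjusted p 0.0502 to 0.0593), and that of ID2 without control replicate 2 or any single BMP9 replicate (limma adjusted p 0.0812 to 0.182). Without probe sets that share probes with other transcripts ID4 lost its call (0.13, limma adjusted p = 0.564) and ID2 had no probe set left to test, averaging a gene's probe sets ended those of ID4 (limma adjusted p = 0.128) and ID2 (limma adjusted p = 0.0780), and poly-A scaling that of ACVR2A (-0.13, limma adjusted p = 0.461).

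**Figure D3:**
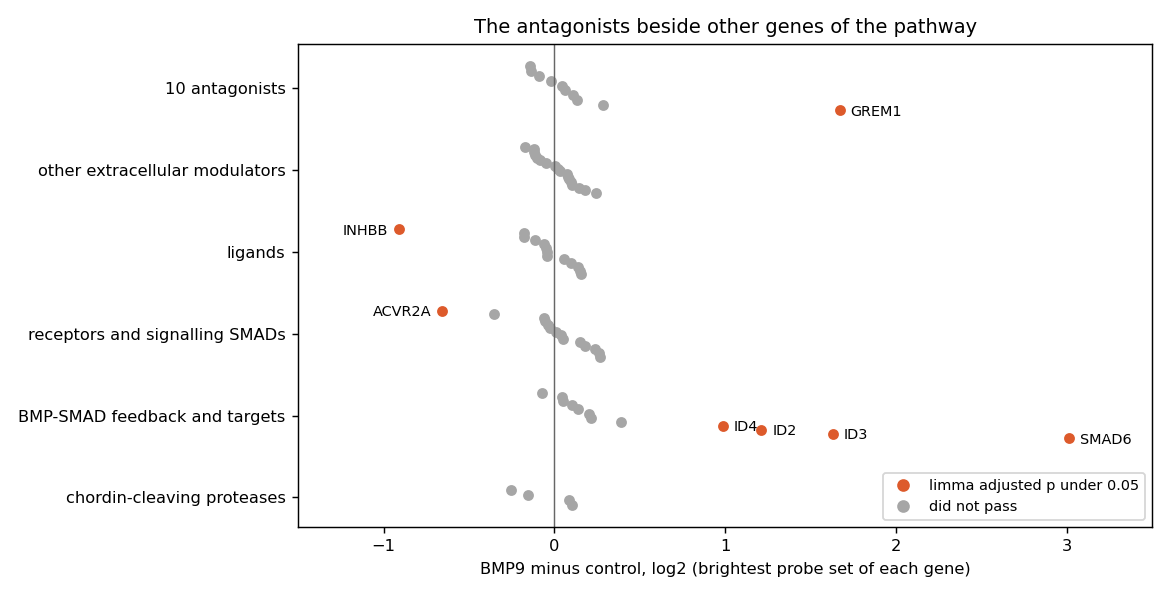
BMP9 minus control difference in log2 (x axis) of the brightest probe set of each gene, for the 10 antagonists and 5 lists of other pathway genes (rows), with genes past a limma adjusted p of 0.05 in orange and named. GREM1 at 1.67 is the antagonist in orange, and the orange genes elsewhere are INHBB, ACVR2A, ID4, ID2, ID3 and SMAD6.

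Of 10 stellate and mesenchymal markers 7 had a mean log2 value of at least 5, as had 3 of 6 hepatocyte, 3 of 5 endothelial, 1 of 5 macrophage and leukocyte and 0 of 4 cholangiocyte markers and 37.2% of all genes, so this level does not set the labelled cell type apart. COL1A1 stood at 9.73 ± 0.16 and VIM at 11.6 ± 0.099 in control (SD, n = 3), and ACTA2 and LRAT at 3.90 and 4.13. Summed linear values of the stellate and mesenchymal markers did not overlap between the groups, at 4341 to 4572 in control and 3729 to 3872 with BMP9. VIM, the brightest of them, had a difference of -0.37 (limma adjusted p = 0.0786), and HAND2 one of 0.30 (limma adjusted p = 0.121), both without overlap. With hybridisation scaling the sums overlapped, and with poly-A scaling they were higher with BMP9 (3580 to 3944 and 3978 to 5429), where the VIM difference was 0.16.

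The sums of the other lists overlapped on the deposited scale: 190 to 195 in control and 187 to 197 with BMP9 for hepatocytes, 172 to 189 and 176 to 187 for endothelial cells, 152 to 160 and 124 to 171 for macrophages and leukocytes, and 57.4 to 64.0 and 56.8 to 63.2 for cholangiocytes. With hybridisation scaling those of hepatocytes and endothelial cells, and with poly-A scaling those of cholangiocytes too, were higher with BMP9 without overlap. Of the 30 marker genes 0 passed in limma (5 had an unadjusted p under 0.05, against 12.9% of all genes). Their part in the GREM1 result was not tested.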

How the data were processed

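RNA from 6 LX-2 samples was hybridised to 1 Affymetrix 3′ array each. The deposited log2 values per probe set were made by the authors with RMA, per the submitters' processing notes; its version and settings are not stated there, and the log base was taken from the values' range. Its quantile step takes out most of any shift common to all transcripts. Of 49395 probe sets, 102 array controls were left out; 44988 of the rest carried 1 symbol, 1832 several and 2473 none. All 27 member probe sets matched a current RefSeq gene by Entrez identifier.

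Each of 49293 probe sets was fitted in limma 3.58.1 (R 4.3.3, lmFit and eBayes, no covariate) with Benjamini-Hochberg adjustment over all of them and a threshold of 0.05; errors are SDs over 3 arrays and moderated SEs. A second fit used the brightest single-gene probe set of 18132 genes, and diffSplice compared probe sets within genes. The fits were tested on simulated data; the own-variance contrast was added after that. Alternatives were quantile normalisation, median centring, scaling to 18 hybridisation or 24 poly-A control probe sets, a minimum mean log2 value, a trended robust prior, a replicate block, single arrays left out, no probe sets ending in _s_at or _x_at, and averaged probe sets. Promoter windows were searched for 8 motifs. All the motifs whose matches are described in the Results were chosen from these after the matches were seen. Named were all members and, of each pathway list, genes past the threshold or else up to 2 with the smallest p. The members and lists were chosen with earlier results of these data known. Figures were drawn with matplotlib 3.10.9.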

Additional observations from a re-analysis of the deposited data

How the results depend on the processing

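The rise of GREM1 11717065_a_at passed in limma under all 14 alternatives in which it was tested; as a gene, GREM1 lost its call when probe sets were averaged, which left 0 of 10 antagonist genes called. Outside the scalings to control RNAs, 299 values of single antagonist probe sets over 13 alternatives kept their side of the threshold, and 13 changed sign, all of them without a call. The count of antagonist probe sets called was 1 in the main setting, 4 with hybridisation scaling, 26 with poly-A scaling and 0 of 1 left at a minimum mean log2 value of 7. For antagonist genes it was 3, 10 and 0 there, and for the 6 pathway genes called it was 28, 58 and 3 (3 to 5 when single arrays were left out, 3 without BMP9 replicate 2). Of all genes, 26.7% were called higher with hybridisation scaling and 93.2% with poly-A scaling. Over all probe sets 202 were called, 10588 and 45805 with the scalings (98.6% and 99.9% of them higher), 449 and 375 at a minimum of 5 and 7, 429 with an intensity trend and robust prior, and 88 to 137 without single arrays. In diffSplice 1 antagonist probe set passed, and 2 with quantile normalisation, hybridisation scaling or no probe sets with shared probes. The count was 0 of 3 left at a minimum of 5, and 1 to 2 without single arrays. Where 2 passed, the other was GREM1 11717067_a_at (diffSplice adjusted p 0.0188 to 0.0471). Its contrast was negative, at -0.72 in the main setting, against a set that holds the rising GREM1 probe set. At a minimum of 7 no antagonist had a pair to test.

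Negative differences that turned positive under hybridisation scaling were those of GREM1 (0.11 and 0.027), CHRD (0.051), CHRDL1 (0.20, 0.058 and 0.12), FST (0.11 and 0.075), FSTL1 (0.069 and 0.19), FSTL3 (0.058), BMPER (0.19), TWSG1 (0.11 and 0.12), SOSTDC1 (0.20), and under poly-A scaling GREM1 (0.43 and 0.35), CHRD (0.37), CHRDL1 (0.52, 0.38 and 0.44), FST (0.43, 0.40 and 0.29), FSTL1 (0.39 and 0.51), FSTL3 (0.38), BMPER (0.51), TWSG1 (0.44 and 0.44), SOSTDC1 (0.52). These scalings add a shift to every probe set. Without single arrays, the sign was not fixed for BMPER 11729825_at (-0.058 to 0.023), CHRD 11745548_a_at (-0.056 to 0.15), CHRD 11748294_a_at (-0.025 to 0.066), CHRDL1 11718619_a_at (-0.10 to 0.14), FSTL1 11752842_a_at (-0.093 to 0.062), FSTL3 11716131_s_at (-0.064 to 0.18), GREM1 11758229_s_at (-0.040 to 0.11), SOSTDC1 11754380_a_at (-0.054 to 0.039); the cause was not tested.

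The replicate numbers did not pair the arrays: deviations from the group means correlated at -0.0017, 0.034 and -0.023 between same-numbered arrays, and 2 of 6 arrays correlated best with their own number. With the replicate number as a block, 1 antagonist probe set was called (GREM1, limma adjusted p = 0.0121) and 160 probe sets in all. With 3 arrays per group and no detection calls, dim probe sets limit what could be seen.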
